A study of Mus musculus with 6 samples.

Results

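The cells described here are endothelial cells of mouse kidney that carried Sele, the gene of E-selectin. A sorted well counted as Sele-positive when it came from the endothelia gate, held at least 1000 genes and 20000 reads on genes, had Sele at 100 or more CPM (counts scaled to 1000000 reads on genes), and did not hold both Apln at 50 and Esm1 at 100 CPM or more. Of 1129 endothelia-gate wells that passed the first filter, 134 were Sele-positive, out of 2235 kept wells in the whole series. They were compared with 915 Sele-low wells of the same gate, which had Sele under 100 CPM and also lacked the Apln and Esm1 pair. Another 80 wells held that pair and were left out of this comparison, and 1 of them had Sele above the threshold. These 80 wells stayed in the denominators of the shares of Sele-positive wells below. The study isolated single mesenchymal and endothelial cells from digested kidney by sorting and sequenced each well by Smart-seq2, which covers transcripts along their length. Its groups were healthy mice, mice at day 2 and mice at day 10 of unilateral ureteric obstruction (UUO), the blocking of 1 ureter, which injures the kidney above it. No genotype, strain, sex or age was given for any group. Each of the 6 plates held cells of 1 mouse per condition. The well layouts carry a number from 1 to 4, shared by plates 1 and 2 and by plates 5 and 6, and this number was taken to mark the mouse, so that each condition is read as 4 mice. Replicates thus rest on that reading, and p-values measure only the spread between these sums, which may be technical in part.

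E-selectin is an adhesion molecule that endothelium places on its surface after signals such as TNF and interleukin 1, through NF-kB. It binds sugars on leukocytes and slows them so that they roll along the vessel wall. The label under which these wells were grouped is activated endothelium, with Ackr2, Hdc and Itga2b as its other markers. Ackr2 is an atypical receptor that takes up inflammatory chemokines without signalling through G proteins, Hdc makes histamine from histidine, and Itga2b is the alpha chain of the fibrinogen receptor of platelets. Ehd3, used below, encodes a membrane trafficking protein that marks glomerular endothelium in the kidney.

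Sele lies on chromosome 1 (164039614 to 164058487 of GRCm38.p6, the RefSeq annotation of the mm10 build), Ackr2 on chromosome 9 (121898355 to 121911075), Hdc on chromosome 2 (126593659 to 126624025), Itga2b on chromosome 11 (102453297 to 102469883) and Ehd3 on chromosome 17 (73804841 to 73832093). The 250 bases before an annotated start of Sele (chr1:164047984-164048233, plus strand, inside the annotated span of the gene) are shown because Sele chose the wells. Capitals mark 2 short motifs that were searched on both strands, and they do not overlap.
Sele promoter: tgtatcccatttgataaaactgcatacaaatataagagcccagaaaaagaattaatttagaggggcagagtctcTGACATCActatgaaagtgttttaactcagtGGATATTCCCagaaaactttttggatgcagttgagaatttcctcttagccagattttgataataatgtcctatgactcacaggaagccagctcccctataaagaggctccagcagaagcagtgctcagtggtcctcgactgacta
The first capitals are TGACATCA, a motif of ATF proteins, 176 to 169 bases before the start. The second are a match on the opposite strand to the loose form of an NF-kB motif (GGG, any 5 bases, CC), 145 to 136 bases before the start. Of 32851 promoter windows in the RefSeq table, 2.93% held the first motif and 45.8% the second, so the second is common in any promoter. A match describes letters only.

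The median depth was 431737 reads and 3381 genes in Sele-positive wells, and 386093 reads and 2936 genes in Sele-low wells (398318 reads in those with Ehd3, 356075 in those without). The 12 control wells held no Sele read. In the mesenchyme gate, 2 of 1106 kept wells reached 100 CPM of Sele. Pecam1, an adhesion molecule of endothelium, had at least 10 CPM in 133 of 134 Sele-positive wells with a median of 2133 CPM, and Cdh5, the cadherin of endothelial junctions, in 131 wells with a median of 508 CPM. The endothelial identity of the wells was thus as labelled. Doublets were not called. Among markers of other cells, no Sele-positive well held haemoglobin or Alas2 reads, and pan-leukocyte markers together reached 100 CPM in 5 wells. Lymphatic endothelial markers together reached 100 CPM in 106 of 134 Sele-positive and 515 of 915 Sele-low wells, though Ccl21a, Mmrn1 and Reln had no read in Sele-positive wells. Mural cell markers reached 100 CPM in 18 and 121 wells, and macrophage markers in 10 and 90. Markers of podocytes, which stand beside glomerular capillaries, did so in 46 of 134 Sele-positive wells and 425 of 915 Sele-low wells, and markers of the tubule in 53 and 453. Their mean summed level per mouse ran from 40.7 to 1518 CPM for podocytes and from 0 to 1693 CPM for the tubule in Sele-positive wells, and from 133 to 2299 and from 5.54 to 7290 CPM in Sele-low wells. Their part in the results was not tested.

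The wells were chosen by their measured Sele, Apln and Esm1, so the level of Sele is a description. Its level ran from 101 to 5835 CPM with a median of 464 CPM. The median was 360 CPM in 17 healthy wells, 795 CPM in 73 wells of day 2 and 358 CPM in 44 wells of day 10. By mouse, the day 2 medians were 656, 679, 363 and 1073 CPM, the healthy medians 381, 364 and 199 CPM, and the day 10 medians 339, 337, 344 and 378 CPM. Day 2 mice 1, 2 and 4 stood above all mice of the other conditions, and day 2 mouse 3 among them. The 3 wells just inside the threshold had 101, 106 and 114 CPM, and the 3 just outside had 81.2, 80.1 and 77.3 CPM. Few wells lay near it: 20 Sele-positive wells had under 200 CPM, and 13 Sele-low wells had at least 50 CPM.

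The first question was whether the share of Sele-positive wells differed between conditions. Shares were taken of all kept endothelia-gate wells. The denominators thus include wells with the Apln and Esm1 pair, which could not count as Sele-positive. Sele-positive and Sele-low wells were 17 and 357 of 380 kept wells in healthy mice, 73 and 281 of 368 at day 2, and 44 and 277 of 381 at day 10. The pair wells thus lowered the day 10 shares most. In healthy mice 1 to 4, 9 of 126, 6 of 64, 2 of 64 and 0 of 126 wells were Sele-positive, or 7.14%, 9.38%, 3.13% and 0%. The count of 0 allows a share of up to 2.38%, taken as 3 counts of 126 wells, and its exact 95% binomial interval ends at 2.89%. At day 2 the counts were 22 of 114, 21 of 63, 8 of 64 and 22 of 127, or 19.3%, 33.3%, 12.5% and 17.3%. At day 10 they were 19 of 127, 3 of 64, 5 of 64 and 17 of 126, or 15.0%, 4.69%, 7.81% and 13.5%. All 4 day 2 mice stood above all 4 healthy mice, and the day 10 mice overlapped both. Exact 95% binomial intervals were wide, from 5.55% to 23.2% in day 2 mouse 3 and from 3.52% to 19.3% in healthy mouse 2, and they cover counting error only.

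The mean share was 4.91% ± 4.17 in healthy mice, 20.6% ± 8.95 at day 2 and 10.2% ± 4.82 at day 10 (SD, n = 4 each). The difference between day 2 and healthy mice was 15.7 percentage points (exact two-sided permutation test over mice, p = 0.0286, adjusted over 3 comparisons 0.0857). The smallest p that 4 against 4 mice allow is 0.0286. Day 10 and healthy mice differed by 5.33 points (exact permutation p = 0.171, adjusted 0.171), and day 10 less day 2 was -10.4 points (exact permutation p = 0.0857, adjusted 0.129). No comparison passed an adjusted p of 0.05. Without day 2 mouse 2 and the other mice of its number, day 10 less day 2 was -4.29 points. That mouse had the largest share.

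Because most Sele-positive wells carried Ehd3 (below), the share was also taken among wells with Ehd3 of at least 50 CPM, a choice made after seeing the data. Wells with the Apln and Esm1 pair stayed in these denominators too. It was 8.57%, 13.3%, 6.06% and 0% in healthy mice 1 to 4, 25.9%, 36.8%, 25.0% and 33.3% at day 2, and 16.7%, 5.88%, 10.5% and 18.1% at day 10. All 4 day 2 mice stood above every mouse of both other conditions. The means were 6.99% ± 5.55, 30.3% ± 5.75 and 12.8% ± 5.65 (SD, n = 4 each). Day 2 less healthy was 23.3 points and day 10 less day 2 was -17.5 points (exact permutation test, adjusted p = 0.0429 for each). Mice of 1 number share plates, and within numbers day 2 lay above healthy and day 10 below day 2 in 4 of 4 numbers, both among these wells and among all kept wells. A test of those paired differences, added after seeing the data, did not pass (exact sign-flip permutation test, p = 0.125, the smallest that 4 numbers allow, adjusted 0.188 for each).

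**Figure D1:**
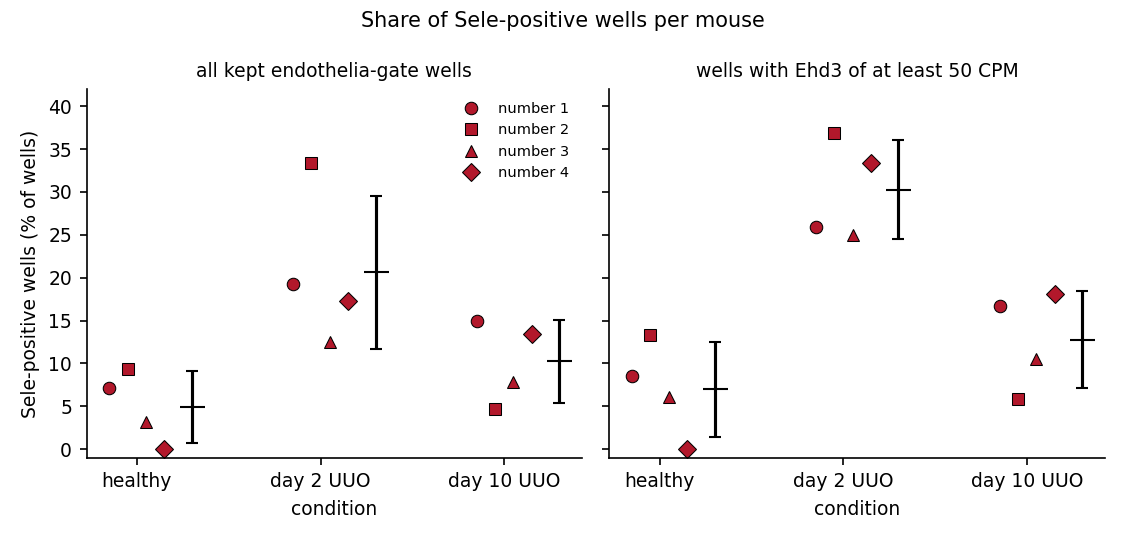
Share of Sele-positive wells per mouse in percent of kept endothelia-gate wells (left) and of those with Ehd3 of at least 50 CPM (right), by condition; each symbol is 1 mouse and the bars are mean and SD of 4 mice. The 4 day 2 mice lie between 12.5% and 33.3% on the left, above the healthy mice, and between 25.0% and 36.8% on the right, above both other conditions.

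Sele-positive wells were mostly of the kind that carries the glomerular endothelial marker Ehd3. Of 134 Sele-positive wells, 128 had Ehd3 of at least 50 CPM, against 573 of 915 Sele-low wells. In the 9 mice with at least 5 Sele-positive wells, the share was 94.8% ± 7.30 in Sele-positive and 64.2% ± 17.0 in Sele-low wells (SD over mice). It was higher in Sele-positive wells in 9 of 9 mice, by 30.6 ± 18.1 points (exact sign-flip permutation test, two-sided, p = 0.00391, the smallest it allows). This test was chosen after seeing the data. Thinned to 200000 reads per well, which left out 3 Sele-positive wells, 95.4% of Sele-positive wells kept Ehd3 at that level. Most wells lay far from the Ehd3 threshold, with 109 of 134 Sele-positive wells at 2000 CPM or more and 4 between 50 and 500 CPM.

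**Figure D2:**
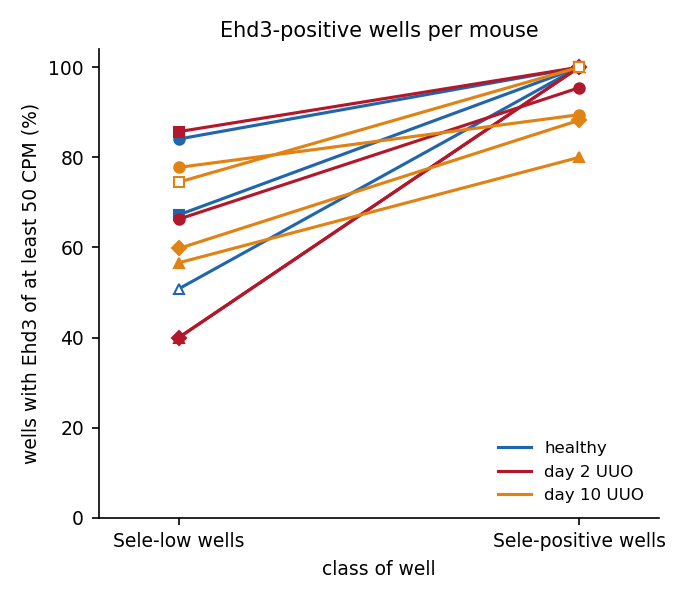
Percent of wells with Ehd3 of at least 50 CPM among Sele-low and Sele-positive wells; each line joins both values of 1 mouse, symbols mark the mouse number (circle 1, square 2, triangle 3, diamond 4), and open symbols are mice with under 5 Sele-positive wells. Every line rises, and Sele-positive wells lie between 80.0% and 100%.

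The 6 Sele-positive wells under 50 CPM of Ehd3 came from day 2 (1 well) and day 10 (5 wells), and none held a read of Ackr2, Hdc, Itga2b or Selp. Plvap, the diaphragm protein of peritubular capillaries, stood at 10582 and 22800 CPM in 2 of them. Igfbp3, a binding protein of insulin-like growth factors, stood at 3664 and 1520 CPM in the same 2 wells and at 41167, 3885 and 442 CPM in others. Gja5, an arterial connexin, stood at 644 CPM in the well with 442 CPM of Igfbp3. It stood at 3573 CPM in the well with the highest Sele of the 6, 3903 CPM, where Igfbp3 stood at 2.05 CPM. Gja4, of the arterial list, stood at 1047 CPM in the well with 3885 CPM of Igfbp3. Most of these 6 wells thus shared Igfbp3, while Plvap, Gja5 and Gja4 varied among them. They were too few for sums of at least 5 wells in any mouse, so no fit among wells without Ehd3 was possible.

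The 3 other markers named with the label were each present in a minority of Sele-positive wells, and these values are a description, since the markers were named with results of these data known. At 10 CPM or more, Ackr2 was in 52 of 134 wells (38.8%), Itga2b in 42 (31.3%) and Hdc in 37 (27.6%). None of the 3 was in 48 wells, 1 of them in 48, 2 in 31 and all 3 in 7. In Sele-low wells with Ehd3, the shares were 18.7% for Ackr2, 14.0% for Itga2b and 17.1% for Hdc, and in Sele-low wells without Ehd3 they were 1.46%, 2.92% and 3.80%. Thinned to 200000 reads per well, the shares in Sele-positive wells were 38.9%, 32.8% and 28.2%, and in Sele-low wells with Ehd3 19.5%, 14.3% and 18.0%. This left out 3 Sele-positive wells and 55 Sele-low wells with Ehd3. All 3 markers were thus also found in Ehd3-bearing wells that were Sele-low.

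The markers differed in their pattern over conditions. Itga2b was in 0 of 17 healthy, 35 of 73 day 2 and 7 of 44 day 10 Sele-positive wells. Ackr2 was in 3 of 17, 34 of 73 and 15 of 44 wells. Hdc was in 8 of 17, 23 of 73 and 6 of 44 wells, so that its share was highest in the healthy wells. In Sele-low wells with Ehd3, Itga2b was in 8 of 232, 46 of 155 and 26 of 186 wells. There Ackr2 was in 31, 38 and 38 wells, and Hdc in 44, 28 and 26 wells.

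Summed over the Sele-positive wells of a mouse (at least 5 wells a sum, scaled with TMM), Itga2b stood at 0 and 1.61 CPM in 2 healthy mice and at 210, 166, 350 and 115 CPM in day 2 mice 1 to 4. It stood at 0.872, 285 and 27.7 CPM in day 10 mice 1, 3 and 4. Ackr2 stood at 75.5 and 1.61 CPM in the healthy mice, at 332, 291, 196 and 314 CPM at day 2, and at 142, 399 and 58.7 CPM at day 10. For both genes all 4 day 2 mice lay above both healthy mice, and the day 10 mice were spread widely, with Ackr2 in day 10 mouse 3 above all others. Hdc stood at 39.2 and 79.8 CPM in healthy mice, at 74.4, 144, 21.2 and 90.7 CPM at day 2 and at 9.81, 0 and 20.5 CPM at day 10, where all 3 mice lay below the other 6. The share of all genes that separated mice of the conditions in such ways was not counted.

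Platelets carry Itga2b, and basophils and mast cells carry Hdc, so the other markers of those cells were read in the same wells. Of the platelet and megakaryocyte list, Pf4 had at least 10 CPM in 2 and Gp9 in 3 of 134 Sele-positive wells, and Gp6 had no read. The list together, Itga2b included, reached 100 CPM in 44 of 134 Sele-positive wells and 108 of 573 Sele-low wells with Ehd3. Among healthy Sele-positive wells it did so in 2 of 17, where Itga2b reached 10 CPM in none, so other members of the list were present there. The summed level of the 10 markers of that list, Itga2b included, had a mean per mouse from 0 to 366 CPM in Sele-positive wells and from 17.9 to 217 CPM in Sele-low wells with Ehd3. Of the 9 basophil and mast cell markers, 6 had no read in any Sele-positive well (Mcpt8, Ms4a2, Fcer1a, Tpsb2, Cma1 and Cd200r3). The 9 together, Hdc included, reached 100 CPM in 32 of 134 Sele-positive wells and 88 of 573 Sele-low wells with Ehd3. At day 10 they did so in 9 of 44 Sele-positive wells, more than held Hdc at 10 CPM, so other members were present there. The summed level of that list, Hdc included, ran from 0 to 336 CPM per mouse in Sele-positive wells and from 20.1 to 158 CPM in Sele-low wells with Ehd3.

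**Figure D3:**
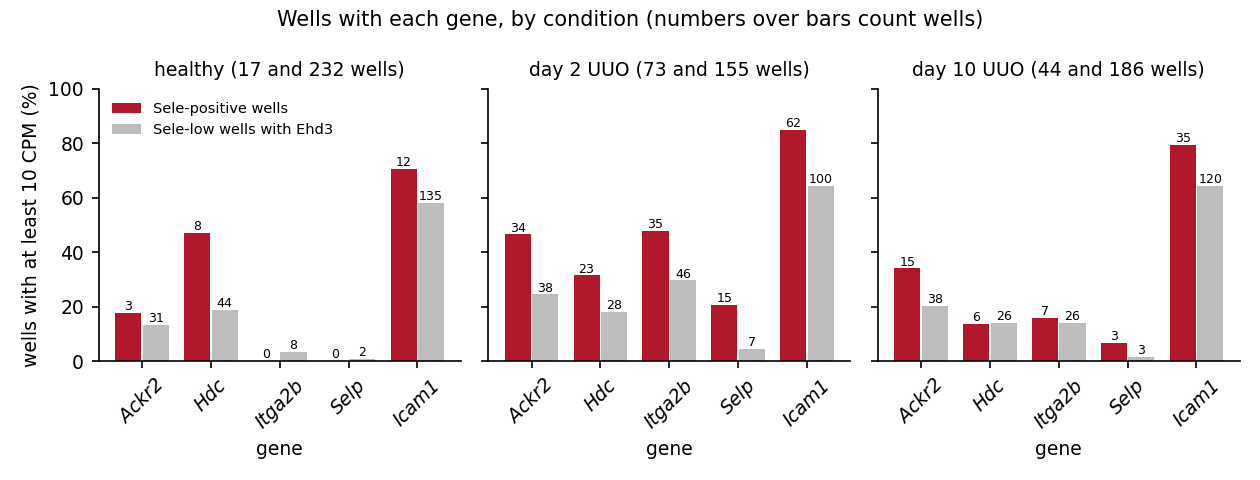
Percent of wells with at least 10 CPM of 5 genes in Sele-positive wells (red) and Sele-low wells with Ehd3 (grey), by condition, with the count of wells over each bar. Itga2b and Selp are in 0 of 17 healthy Sele-positive wells and in 35 and 15 of 73 wells at day 2, and Icam1 is in most Sele-positive wells of every condition. Over all conditions Icam1 is also in 355 of 573 Sele-low wells with Ehd3.

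Other adhesion molecules of inflamed endothelium were read next. Icam1, the ligand of leukocyte integrins, had at least 10 CPM in 12 of 17 healthy, 62 of 73 day 2 and 35 of 44 day 10 Sele-positive wells. In total it was in 109 of 134 Sele-positive wells (81.3%) and also in 355 of 573 Sele-low wells with Ehd3 (62.0%). Selp, the gene of P-selectin, was in 0 of 17, 15 of 73 and 3 of 44 wells, and in 12 of 573 Sele-low wells with Ehd3. Vcam1, which binds the integrin of lymphocytes and monocytes, was in 7 of 134 Sele-positive wells, and Ackr1, the chemokine receptor of venules, in none. Per mouse, the share with Vcam1 ran from 0% to 17.6% in Sele-positive wells and from 0% to 16.1% in Sele-low wells with Ehd3. In the sums per mouse, Selp stood at 0 CPM in both healthy mice, at 68.5, 85.4, 61.3 and 106 CPM in day 2 mice 1 to 4, and at 41.5, 0 and 3.50 CPM at day 10. Every day 2 mouse lay above every mouse of the other conditions for Selp, and how many of all genes did so was not counted.

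The next comparison asked which genes differ between Sele-positive and Sele-low wells of the same mouse. Counts were summed per mouse and class and tested in 9 mice with edgeR's quasi-likelihood test with the mouse as a block (Benjamini-Hochberg adjustment over all genes). Besides Sele, which chose the wells, 37 of 10838 genes were higher and 128 lower in Sele-positive wells at an adjusted p under 0.05, or 1.52% of the genes tested. The count was not stable: it fell to between 5 and 12 genes when all mice of 1 number were left out (10, 8, 5 and 12 without numbers 1 to 4). With as many Sele-low as Sele-positive wells of each mouse, an alternative chosen after seeing the data, 2 genes passed, Fbln2 and Igfbp7, both lower, while DESeq2 called 110 higher and 93 lower. Those Sele-low wells were the first of each mouse in order of plate and well name, not a random draw. In numbers 1 and 4, which span 2 plates, they came first from 1 plate, while Sele-positive wells of both plates were kept. Class and plate are thus partly mixed there. Sele-positive sums held 5 to 22 wells and Sele-low sums 42 to 113 wells in these mice, and the median log2 change over all genes was -0.53, so a gene present in few wells tends to be at 0 in the smaller sum.

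Of the 10 genes of the glomerular endothelial list, 3 passed the test as higher (Ehd3, Gata5 and Plat), 0 as lower and 7 did not pass, with a median log2 change of 0.59 against -0.53 over all genes. With levels pooled over mice, which depends less on the size of the sums, the median log2 ratio was 0.61 against -0.10. Ehd3 stood at 5746 ± 1525 CPM in Sele-positive and 3115 ± 1421 CPM in Sele-low sums (SD, n = 9 mice), a log2 change of 0.96 ± 0.14 (SE, edgeR adjusted p = 0.0086), higher in 9 of 9 mice. Plat, which encodes tissue plasminogen activator, stood at 17843 ± 4875 against 10854 ± 5643 CPM, a log2 change of 0.83 ± 0.15 (edgeR adjusted p = 0.0224). Gata5, a transcription factor, stood at 292 ± 122 against 151 ± 68.9 CPM, with a log2 change of 0.95 ± 0.21.

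Of the 19 tested genes of NF-kB and its feedback, 2 were higher, 0 lower and 17 did not pass, with a median log2 change of 0.37. Relb, an NF-kB subunit, stood at 174 ± 99.1 against 64.6 ± 34.8 CPM (log2 change 1.46 ± 0.27, edgeR adjusted p = 0.0262, n = 9 mice). Irf1, a transcription factor induced by interferon gamma and NF-kB, stood at 2319 ± 715 against 1363 ± 668 CPM (log2 change 0.85 ± 0.13, edgeR adjusted p = 0.0147). Nfkbia, the NF-kB inhibitor that NF-kB itself induces, had at least 10 CPM in 128 of 134 Sele-positive and 798 of 915 Sele-low wells, and did not pass. None of the 18 tested interferon response genes, the 19 immediate early and dissociation genes or the 13 tested leukocyte adhesion genes other than Sele passed.

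The other genes of largest higher change were Frrs1 (log2 change 1.62 ± 0.30), Irf8, a transcription factor of the interferon regulatory family (1.51 ± 0.28), Fam174b (1.38 ± 0.30), and P2ry1, a receptor of ADP (1.26 ± 0.24). They were followed by Slco2a1, a transporter of prostaglandins (1.06 ± 0.19), Plekho2 (1.01 ± 0.20) and Marcksl1, an actin-binding protein (0.99 ± 0.13). Of the endothelial identity list, 2 of 13 genes were higher, Kdr, the main VEGF receptor (0.69 ± 0.11), and Emcn, the sialomucin endomucin (0.56 ± 0.12), while Pecam1 (0.07 ± 0.12) and Cdh5 (-0.24 ± 0.21) did not pass. In the haemostasis list 2 of 15 genes were higher, Plat and F2r, the thrombin receptor (0.74 ± 0.11). In the VEGF and angiopoietin list, 2 of 11 were higher, Kdr and Nrp1 (0.56 ± 0.10), a co-receptor of VEGF, and 1, the lymphatic growth factor Vegfc, was lower.

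Of the 15 tested arterial and vasa recta genes, 8 were lower (Sox17, Fbln2, Ltbp4, Tspan8, Ssu2, Jag1, Edn1 and Aqp1), 0 higher and 7 did not pass, with a median log2 ratio of pooled levels of -2.50 against -0.10 over all genes. That ratio sets a pooled count under 3 to 3 counts over the group. Tspan8, a tetraspanin, stood at 39.3 ± 50.4 CPM in Sele-positive and 757 ± 315 CPM in Sele-low sums (n = 9 mice), and was in 18 of 134 and 274 of 915 wells. Fbln2, a matrix protein, was in 3 and 204 wells, Edn1, the vasoconstrictor endothelin 1, in 7 and 207, Jag1, a Notch ligand, in 19 and 288, and Aqp1, a water channel, in 14 and 156. Ssu2 was in 0 of 134 and 136 of 915 wells. Sox17, a transcription factor of arterial endothelium, was present in most wells of both classes and stood at 262 ± 115 against 568 ± 236 CPM (log2 change -1.13 ± 0.22, edgeR adjusted p = 0.0288).

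The other named genes of largest lower change were sparse, so wells with at least 10 CPM are given in place of a fitted change. Scin, an actin-severing protein, was in 2 of 134 Sele-positive and 116 of 915 Sele-low wells, Fxyd6, a regulator of the sodium pump, in 0 and 111, and Rgs16, a regulator of G protein signalling, in 2 and 103. P2ry2, a receptor of ATP and UTP, was in 3 and 132, Csf2rb2 in 1 and 60, Serpinb1a, a protease inhibitor, in 3 and 78, Ccdc3 in 1 and 49 and Rassf9 in 2 and 114. Igfbp7, a matrix-associated protein of vessels, was in 23 and 364 wells. Several were found mainly in wells without Ehd3: Scin was in 97 of 342 Sele-low wells without Ehd3 and in 19 of 573 with it, and Rgs16 in 84 and 19. Among immune genes, 1 chemokine of 8 tested was lower (Cxcl12, in 2 of 134 and 138 of 915 wells), 1 of 3 atypical chemokine receptors (Ackr3, in 4 and 74), and 1 of 15 MHC genes (Cd74, in 4 and 68).

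The same comparison was then made among wells that all carried Ehd3 at 50 CPM or more. The classes still differed in it: 4 of 128 Sele-positive and 70 of 573 Sele-low wells lay between 50 and 500 CPM. Besides Sele, 0 of 10249 genes passed in 8 mice (0% of genes tested), and 590 genes had an unadjusted p under 0.05 in edgeR, or 5.76%. DESeq2 called 63 genes higher and 462 lower in the same sums. With equal numbers of wells it called 62 higher and 35 lower, while edgeR called 0. The 2 tools thus gave different answers, and the main one names no gene.

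Levels of the same genes among Ehd3-bearing wells are given as values that did not pass. Slco2a1, Irf1, Relb, Ehd3, Plat and Gata5 had passed against all Sele-low wells, a comparison that shares most of these wells. Their direction over mice is therefore no separate support. How many of all genes had 1 direction in every mouse was not counted. Slco2a1 stood at 1328 ± 601 CPM in Sele-positive and 821 ± 358 CPM in Sele-low sums (log2 change 0.68 ± 0.12, edgeR adjusted p = 0.285, higher in 8 of 8 mice). Irf1 stood at 2282 ± 766 against 1640 ± 764 CPM (0.55 ± 0.11, edgeR adjusted p = 0.292, higher in 7 of 8 mice), and Relb at 148 ± 80.4 against 71.6 ± 35.2 CPM (1.05 ± 0.27, edgeR adjusted p = 0.52, 8 of 8 mice). Ehd3 itself, used to choose these wells, differed by 0.30 ± 0.07, Plat by 0.27 ± 0.07 and Gata5 by 0.39 ± 0.23. Icam1 stood at 781 ± 342 against 510 ± 142 CPM (0.50 ± 0.24, edgeR adjusted p = 0.858, 6 of 8 mice). The 19 tested NF-kB genes had a median log2 change of 0.25 with 13 above 0, the 12 tested leukocyte adhesion genes of 0.13, and the 9 tested glomerular genes of 0.24, where all genes tested had a median of -0.31 with 30.4% above 0. Other lists moved too. Of 19 immediate early and dissociation genes 14 lay above 0 (median 0.04), and of 13 arterial and vasa recta genes 0 did (median -1.77). No member of these lists passed. Plvap stood at 83.6 ± 157 against 813 ± 908 CPM, lower in 8 of 8 mice (edgeR adjusted p = 0.331).

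**Figure D4:**
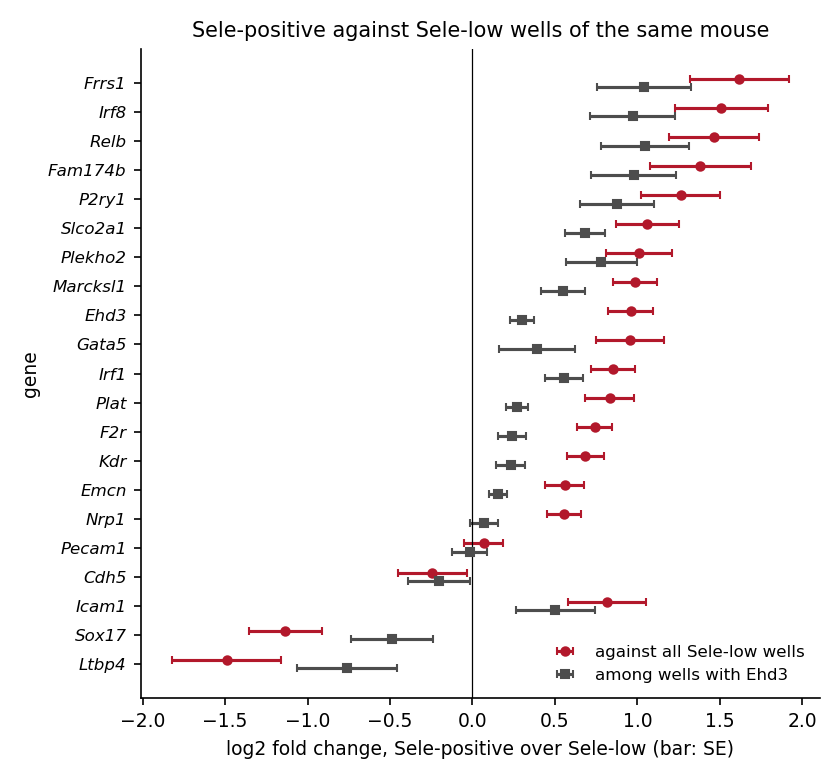
Log2 fold change (point) and SE (bar) of 21 genes in Sele-positive over Sele-low wells of the same mouse, against all Sele-low wells (red circles, 9 mice) and among wells with Ehd3 (grey squares, 8 mice). Glomerular and endothelial genes such as Ehd3 (0.96 and 0.30) and Kdr (0.69 and 0.23) lie closer to 0 among wells with Ehd3, and none of the grey values passed the test. Ehd3 chose the wells of the grey values, so its own smaller change is tied to that choice and is a description.

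**Figure D5:**
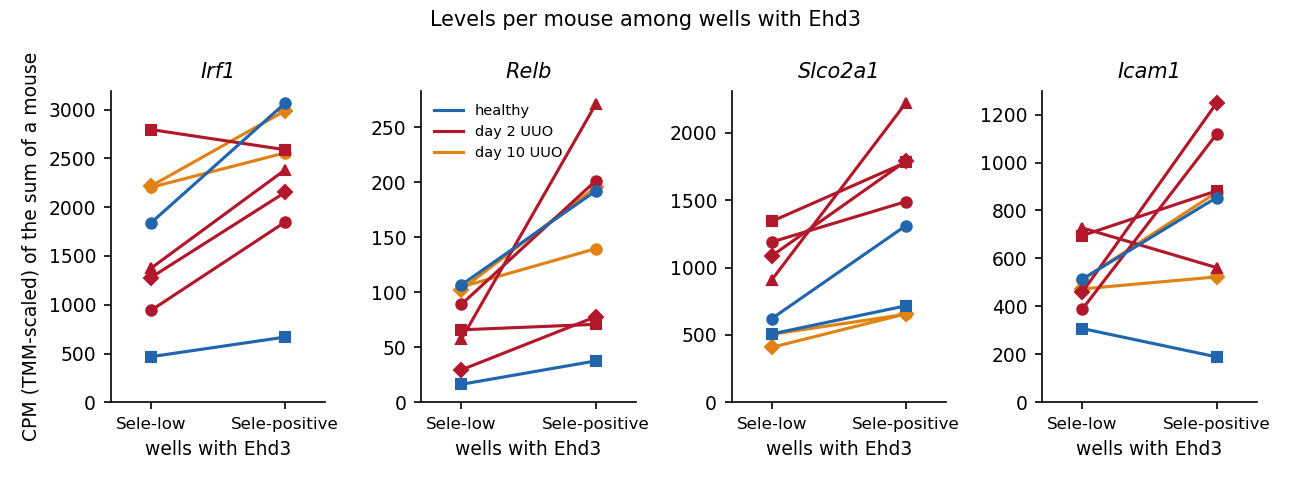
Levels of 4 genes in TMM-scaled CPM among wells with Ehd3; each line joins the Sele-low and Sele-positive sums of 1 mouse, with symbols for the mouse number as circle 1, square 2, triangle 3 and diamond 4. Relb and Slco2a1 are higher in Sele-positive sums in 8 of 8 mice, Irf1 in 7 and Icam1 in 6, and the mice differ widely in level. Relb, Slco2a1 and Irf1 had passed against all Sele-low wells, a comparison that shares most of these wells, so their counts of mice are no separate support.

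The last comparisons asked how Sele-positive wells differ between conditions, in sums of 2 healthy, 4 day 2 and 3 day 10 mice with the number as a block. In edgeR, 0 of 11399 genes passed at day 2 against healthy (0% of genes tested, 464 at an unadjusted p under 0.05, and 827 called by DESeq2). At day 10 against healthy 0 passed (0%, 396 unadjusted, 635 in DESeq2), and at day 10 against day 2 also 0 (0%, 181 unadjusted, 137 in DESeq2). Healthy mice gave only 2 sums, of 9 and 6 wells. No list had a member that passed, so levels are given per mouse or as ranges, without a call. Tubule markers together reached 100 CPM in 8 of 17 healthy, 42 of 73 day 2 and 3 of 44 day 10 Sele-positive wells, and macrophage markers in 1, 1 and 8, and their part in these values was not tested.

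Some genes had levels that separated the mice of 2 conditions. F8, coagulation factor VIII, ran from 1112 to 1394 CPM in the 4 day 2 sums, from 386 to 476 CPM in the 2 healthy sums and from 559 to 634 CPM in the 3 day 10 sums (day 2 against healthy, log2 change 1.63 ± 0.30, edgeR adjusted p = 0.534). Lpl, lipoprotein lipase, ran from 2234 to 2480 CPM at day 2, from 910 to 1322 CPM in healthy and from 170 to 641 CPM in day 10 sums. Lrg1, a secreted glycoprotein of inflamed endothelium, ran from 377 to 569 CPM at day 2, from 43.6 to 166 CPM in healthy and from 53.7 to 274 CPM in day 10 sums. All 4 day 2 sums lay above the sums of the other conditions for these 3 genes, as for Selp. None of these genes passed, and how many of the 11399 genes tested separated in this way was not counted. Day 10 mouse 2, whose 3 wells were too few for a sum, had a mean of 501 CPM of Lrg1 over its wells, within the day 2 range. Sele-low wells with Ehd3 also had high values at day 2: in their sums of 4 mice per condition, Lpl ran from 1512 to 2251 CPM at day 2, from 688 to 901 CPM in healthy and from 281 to 628 CPM at day 10. Lrg1 ran there from 315 to 414 CPM at day 2, from 17.2 to 42.7 CPM in healthy and from 72.4 to 320 CPM at day 10, and F8 from 739 to 1075, from 223 to 699 and from 297 to 694 CPM.

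Gpihbp1, which anchors lipoprotein lipase on capillaries, ran from 179 to 298 CPM in healthy, from 510 to 828 CPM in day 2 and from 790 to 1689 CPM in day 10 sums (day 10 against healthy, log2 change 2.33 ± 0.39, edgeR adjusted p = 0.394). Fabp4, a fatty acid binding protein, ran from 211 to 350 CPM in healthy and from 1103 to 2259 CPM in day 10 sums, and stood at 569 ± 118 CPM in the 4 day 2 sums. Both belong to the list of peritubular capillary genes, of which 0 of 7 passed. Clu, a secreted chaperone of injury, ran from 466 to 698 CPM in healthy, 678 to 2324 CPM in day 2 and 363 to 1136 CPM in day 10 sums, which overlapped. Ehd3 ran from 6112 to 6533 CPM in healthy, 5010 to 8588 CPM in day 2 and 3403 to 5473 CPM in day 10 sums, and the NF-kB subunit Relb from 39.1 to 196, from 71.1 to 276 and from 137 to 329 CPM.

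Whether the change with obstruction differed between Sele-positive and Sele-low wells was tested as an interaction in edgeR. At day 2, 1 of 10838 genes passed (0.00923%), Por, and 720 had an unadjusted p under 0.05. At day 10, 3 passed (0.0277%), among them Por and Ifit1, and 616 had an unadjusted p under 0.05. Por, the electron donor of cytochrome P450 enzymes, had at least 10 CPM in 1 of 17 healthy, 34 of 73 day 2 and 20 of 44 day 10 Sele-positive wells, and in 136 of 357, 88 of 281 and 107 of 277 Sele-low wells. Ifit1, an interferon-induced gene, was in 0 of 17, 7 of 73 and 18 of 44 Sele-positive wells and in 50 of 357, 30 of 281 and 75 of 277 Sele-low wells. The calls of Por and Ifit1 rest on few or no reads in the 17 healthy Sele-positive wells, and with equal numbers of wells 0 genes passed in either comparison. Without the mice of number 1, which leaves 1 healthy sum assumed to vary like the others, 98 genes passed at day 2 and 84 at day 10, and without any other number 0 passed.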

How the data were processed

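The authors deposited raw read counts per gene and well, raw counts per spike-in RNA (92 sequences) and well labels. STAR and mm10 appear, without versions, in the submitters' processing notes; the counting tool, annotation and strand use are not given in the sources used here, so overlapping genes are not told apart. Entries of 1 symbol were added (24490 to 23998). A condition fills the same columns of wells on every plate, and these cannot be told apart. Of 1152 endothelia-gate wells, 1129 passed the filter. Counts were summed per condition, number and class (at least 5 wells), filtered with filterByExpr, scaled with TMM and tested with edgeR 4.0.16 (R 4.3.3, checked on simulated data). The simulated sums had the read totals of these sums but were not built from wells. That check therefore does not cover genes present in few wells. DESeq2 1.42.0 was an alternative. SE is the log2 change over the square root of F. Same-numbered Sele-positive sums of different conditions did not deviate together (r from -0.00888 to 0.0367 over 6 pairs), so that block rests on shared plates, while Sele-positive and Sele-low sums come from 1 mouse. Genes were named by a rule: up to 10 of largest change in each direction with an adjusted p under 0.05, a mean log2 CPM no lower than 4 and the direction shared by every mouse, Gm-number, Rik and -ps names passed over, up to 4 genes of smallest p of each list described, and 10 fixed genes. A result for 1 gene is not reported here. Members and lists were chosen with earlier results of these data known.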

Additional observations from a re-analysis of the deposited data

Results flagged for a closer look

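Of 30 groups of 4 mice examined, 4 had 1 mouse far from the other 3. All 4 were genes near 0 in the Sele-positive sums of day 2, and the gap made up a share of 1.0 of the range for Csf2rb2, 0.993 for Fbln2, 0.895 for P2ry2 and 0.994 for Serpinb1a. In P2ry2 the mouse apart was the one at 0, and in the others it was the highest. Fbln2 was in 1 and Serpinb1a in 3 of 73 Sele-positive wells of day 2.

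The change with obstruction differed between Sele-positive and Sele-low wells for Por at day 2 (interaction of 7.86 on the log2 scale, edgeR adjusted p = 0.00763) and at day 10 (7.38, edgeR adjusted p = 0.0167). At day 10 it also differed for Ifit1 (14.0, edgeR adjusted p = 0.0369). These fitted values depend on the prior count, since the healthy Sele-positive wells held no read of Ifit1 and a mean of 1.49 CPM of Por.

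In the mesenchyme gate, 2 of 1106 kept wells had Sele of at least 100 CPM, 1 at day 2 and 1 at day 10, and the control wells held no Sele read. Of these 2 wells, 1 had Pecam1 of at least 100 CPM and 1 had Ehd3 of at least 50 CPM.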

How the results depend on the processing

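Counts of genes depended strongly on the processing. The 165 genes that passed against all Sele-low wells became 1775 with DESeq2, 459 with the plate in place of the number, 91 without the replicate block, 1 with at least 10 wells per sum, 2 with equal numbers of wells, and from 5 to 12 with 1 number left out; with DESeq2 on equal wells, 203 passed, of which 38 were among the 165. Among wells with Ehd3, edgeR called 0 under every setting run, including each number or condition left out, while DESeq2 called 525 and, on equal wells, 97. Between conditions, edgeR called 0 in all 3 comparisons with any number left out. DESeq2 called 827 (day 2), 635 (day 10) and 137 (day 10 against day 2). The fit without the block gave 4, 4 and 0, plates gave 1, 1 and 3, and no filter gave 1 in the last. The interaction at day 2 (1 gene) gave 12 without a filter, 504 with DESeq2, 91 without the block, 22 with plates, 4 at a Sele threshold of 200 CPM, 2 without mixed wells, 0 with equal wells and from 0 to 98 with 1 number left out. That at day 10 (3 genes) gave 435, 92 without the block, 33 with plates, 0 with equal wells and from 0 to 84. The highest value of each range came without number 1. RLE factors moved the median change at day 2 by -0.15 on the log2 scale.

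The share at day 2 less healthy was 15.2 points with plates as the unit (exact permutation, adjusted p = 0.00649) and 23.3 among wells with Ehd3, and from 13.0 to 17.8 with 1 number left out. Day 10 less healthy was 7.10 points with plates (exact permutation, adjusted p = 0.0455) and from 2.61 to 8.67; day 10 less day 2 was -17.5 among wells with Ehd3 and from -12.6 to -4.29. With the replicate block (differences within numbers, added after seeing the data) no share comparison passed: adjusted p was 0.188 for day 2 less healthy and for day 10 less day 2, among all wells and among wells with Ehd3. With plates, 2 plates of 1 number count as 2 animals. For 36 named genes, 292 of 522 alternative values kept direction and side of the threshold and 230 no longer passed; 0 reversed. The alternatives with equal wells, Ehd3-bearing wells, left-out conditions and at least 2 wells per sum were chosen after seeing the data. Those with equal wells took Sele-low wells in order of plate and well name, so class and plate are partly mixed in them. The fit among wells without Ehd3 could not be made, and at least 10 wells per sum could not be fitted for comparisons with healthy mice. The number of healthy Sele-positive wells (17, in 2 sums of 9 and 6 wells) limits what the comparisons with healthy mice can show.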

Other observations

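At day 10 against healthy, 0 of 7 flow response genes passed, with a median log2 change of 0.52 and 4 above 0, and 0 of 14 BMP and TGF-beta genes, with a median of -1.07 and 5 above 0, where all genes tested had a median of 0.52. Single genes of both lists, chosen after their values were seen, are given as values. Klf2, a flow-induced transcription factor, ran from 554 to 933 CPM in 2 healthy, 534 to 1028 CPM in 4 day 2 and 234 to 506 CPM in 3 day 10 sums (day 10 against healthy, log2 change -1.37 ± 0.39, edgeR adjusted p = 1). Id1, a target of BMP signals, ran from 397 to 504 CPM, 341 to 434 CPM and 165 to 260 CPM. Of the 10 tested genes of the glomerular list, 0 passed at day 10 against healthy, with a median log2 change of -0.85 and 3 above 0. Pi16 and Tbx3 of that list ran from 389 to 722 CPM and from 180 to 361 CPM at day 10, below all healthy and day 2 sums, which started at 1000 and 413 CPM. How many of all genes separated in this way was not counted, and Sele-low wells were not set beside them here.

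Although wells with both genes were left out, reads of either gene of the tip-cell pair were present at day 10. Apln, a peptide of sprouting endothelium, had at least 10 CPM in 14 of 44 day 10, 2 of 73 day 2 and 1 of 17 healthy Sele-positive wells, and Esm1, a secreted proteoglycan of tip cells, in 13, 5 and 0. Both genes took part in choosing the wells, so these counts are a description.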
